A study of Rattus norvegicus with 11 samples.

Results

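Igfbp5, Ccn2, Tgfbr2 and Itga11 are 4 genes of the extracellular matrix and of growth factor signalling, taken from the 32883 Ensembl genes counted in rat corpora quadrigemina, the part of the midbrain roof made of the inferior and superior colliculi. They were chosen by their identifiers, ENSRNOG00000017206, ENSRNOG00000015036, ENSRNOG00000013265 and ENSRNOG00000006723, with their differences between the strains already known, so their values are given as a description and carry no test. The study compared 3 KM, 4 “0” and 4 W rats to look for expression traits that go with audiogenic epilepsy (AE), seizures set off by loud sound. All 11 were 4-month-old males labelled as Wistar and exposed to sound 4 days before the tissue was taken. KM (Krushinsky-Molodkina) rats were selected from Wistar rats for AE and are labelled as prone to it. The “0” rats come from KM × Wistar hybrids under selection against AE and are labelled as less prone. The “0” strain is still under selection, and only animals without a response to sound were used. W rats are labelled as wild type, and the animals that responded to sound were left out. KM rats had been exposed to sound once before at the age of 3 months and “0” rats 3 times, so seizure history and handling go with the strain and cannot be told apart from it.

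Insulin-like growth factor binding protein 5, the product of Igfbp5, is a secreted protein that holds insulin-like growth factors (IGFs) in the extracellular space and also binds matrix components. Connective tissue growth factor, the product of Ccn2, is a matricellular protein of the CCN family whose gene is a classical target of TGFβ signalling and of the YAP/TAZ co-activators acting through TEAD factors. Tgfbr2 encodes the type II TGFβ receptor, which binds the ligand and phosphorylates the type I receptor, and Itga11 encodes the integrin α11 chain, which pairs with the β1 chain into a receptor for fibrillar collagens. In brain these genes are known from vessels, meninges, glia and subsets of neurons.

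The promoters of Ccn2 and Igfbp5 are shown because both genes were lower in KM and “0” rats than in W rats. The sequences are the 250 bases before the annotated start in RefSeq's rat assembly GRCr8, read 5′ to 3′ on the gene's own strand, while the counts were made on Rnor_6.0. The Ccn2 window is chr1:22624615-22624864 and the Igfbp5 window is chr9:81914188-81914437, both on the minus strand. Capitals mark matches, on either strand, to the short core motif of Smad factors, CAGAC, to that of TEAD factors, GGAATG, or to the box found near many start sites, TATAAA.
Ccn2: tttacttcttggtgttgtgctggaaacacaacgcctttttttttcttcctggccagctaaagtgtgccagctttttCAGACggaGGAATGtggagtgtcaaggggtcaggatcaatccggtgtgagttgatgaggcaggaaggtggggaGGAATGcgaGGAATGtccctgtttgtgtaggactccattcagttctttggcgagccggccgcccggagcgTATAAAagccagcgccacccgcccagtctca
Igfbp5: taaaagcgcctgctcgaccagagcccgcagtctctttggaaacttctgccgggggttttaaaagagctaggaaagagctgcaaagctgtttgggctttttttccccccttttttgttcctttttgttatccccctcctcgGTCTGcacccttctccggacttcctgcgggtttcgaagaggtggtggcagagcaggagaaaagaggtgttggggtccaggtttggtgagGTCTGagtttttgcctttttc
Ccn2 held 3 GGAATG motifs, which began 166, 101 and 92 bases before the start, with 1 CAGAC at 174 bases and 1 TATAAA at 31 bases. Of 33469 rat promoters of this length, 12.1% held GGAATG at least once and 0.0807% held it 3 times or more. Igfbp5 held CAGAC on the other strand (GTCTG) at 110 and 21 bases, a motif present in 42.9% of all promoters, while TATAAA was present in 12.9%. Itga11 held 1 GTCTG at 105 bases, and none of these motifs lay in the Tgfbr2 window. The AP-1 motif TGACTCA (4.05% of all promoters) and the NR4A motif AAAGGTCA (1.24%) were in none of the 4 windows. These matches describe letters in the reference and not sites shown to be bound.

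The libraries held 10545964 to 15140180 reads assigned to genes, so that 3 counts, taken as the smallest amount that could be shown, corresponded to 0.198 to 0.284 CPM (counts scaled to a common library size). Levels are given as CPM after scaling by the TMM method of edgeR, and this floor covers counting error only. Pairs of rats within a strain varied beyond sampling noise (chi-square over degrees of freedom, 18.6 to 211). Among the libraries, KM 3, “0” 4 and “0” 3 stood apart: the 10 genes with most counts held 7.94%, 7.95% and 29.2% of the reads, against 13.9% to 19% in the other rats. KM 3 also stood apart in choroid plexus markers, 8 of 11 of which had a symbol and summed to 7085 CPM against 19.2 to 75.4 CPM in the other 10 rats. None of the 8 was at 0 in all rats of a strain. Of the 11 markers of the colliculi and midbrain only Pou4f1 could be found by name, at 0.0822 to 2.76 CPM. Of 7 markers of thalamus and cortex, Lef1 and Prkcd had a symbol. Their sum was 30.9 to 63.2 CPM (KM), 19.6 to 50.3 CPM (“0”) and 17.1 to 40.4 CPM (W). In each strain the rat with the highest sum had the lowest Pou4f1. These were KM 1 (63.2 and 0.0822 CPM), “0” 1 (50.3 and 0.237 CPM) and W 4 (40.4 and 0.846 CPM). So few markers could not settle how the dissections compared. The part of neighbouring tissue in the levels was not tested. In bulk tissue, fewer cells of a type and less RNA per cell cannot be told apart.

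Igfbp5 was lower in KM and in “0” rats than in W rats. In KM rats Igfbp5 stood at 82.7, 148 and 119 CPM (KM 1 to KM 3). In “0” rats it stood at 184, 163, 110 and 88.9 CPM (“0” 1 to “0” 4), and in W rats at 208, 194, 209 and 259 CPM (W 1 to W 4). Every W rat was above every KM and every “0” rat, while KM and “0” rats overlapped and the highest of them, “0” 1, lay just under W 2. Igfbp5 averaged 117 ± 32.8 CPM (SD, n = 3) for KM rats, 137 ± 44.4 CPM (SD, n = 4) for “0” rats and 218 ± 28.5 CPM (SD, n = 4) for W rats. On the log2 scale the difference between KM and W was −0.90 with a standard error (SE) of 0.20, which is a level 1.87-fold lower in KM. The difference between “0” and W was −0.68 (SE 0.23), or 1.6-fold lower in “0”. The order of the levels was thus W, “0”, KM, and the step between the last pair, −0.23 (SE 0.29) for KM vs “0”, was smaller than its SE. Leaving out 1 rat at a time kept KM vs W between −1.12 and −0.71 and “0” vs W between −0.85 and −0.51, whereas KM vs “0” ranged from −0.44 without KM 2 to −0.03 without KM 1. W 4, the rat with the highest Igfbp5, was also the rat with the most erythrocyte RNA, 6614 CPM over 3 marker symbols. The W mean without W 4 was 204 ± 8.74 CPM (SD, n = 3), and KM vs W was then −0.82.

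**Figure D1:**
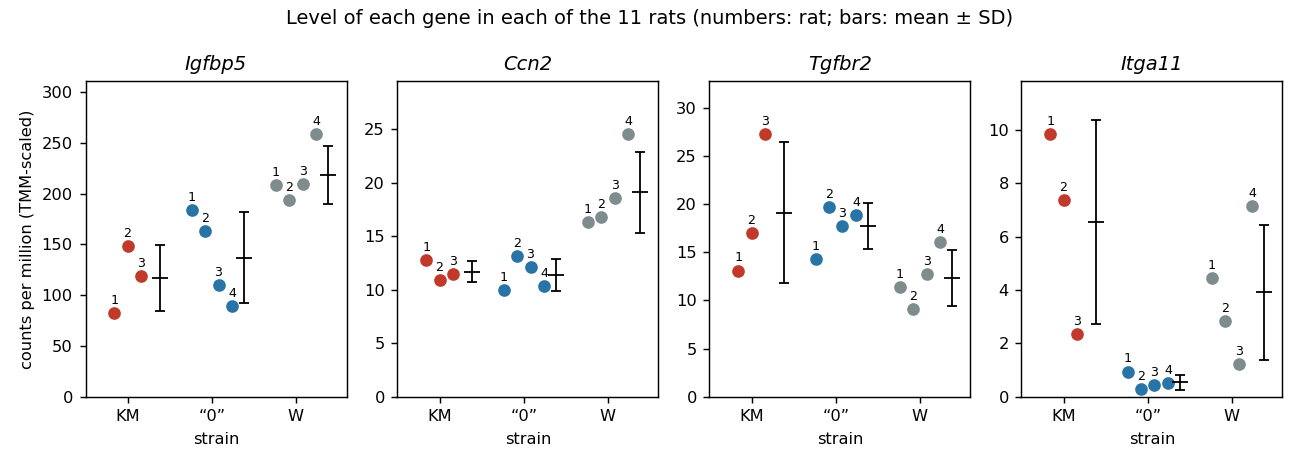
Level of each gene in TMM-scaled CPM (vertical axis, from 0) in KM, “0” and W rats. Points are single rats with their numbers and the black bars give the mean ± SD of the strain. The 4 W rats (194 to 259 CPM) sit above all other rats for Igfbp5, and the 4 “0” rats (0.285 to 0.947 CPM) sit below all other rats for Itga11.

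Ccn2 showed the same order of W over the remaining strains, while KM and “0” rats overlapped. Ccn2 was at 12.8, 10.9 and 11.5 CPM in KM rats and at 9.95, 13.2, 12.1 and 10.4 CPM in “0” rats. In W rats it was at 16.3, 16.8, 18.6 and 24.6 CPM. No KM or “0” rat reached the lowest W rat, and the ranges of KM and “0” rats overlapped almost fully. Ccn2 averaged 11.7 ± 1 CPM (SD, n = 3) for KM rats, 11.4 ± 1.51 CPM (SD, n = 4) for “0” rats and 19.1 ± 3.83 CPM (SD, n = 4) for W rats. Ccn2 was 1.63-fold lower in KM than in W (log2 difference −0.70, SE 0.18) and 1.68-fold lower in “0” than in W (−0.75, SE 0.18). The difference between KM and “0” was 0.04 (SE 0.18), with a range from −0.03 to 0.12 when 1 rat was left out. The coefficient of variation of Ccn2 among KM rats was 8.54%, near the 7.92% that counting alone gives for its 128 to 194 reads a rat. Among W rats the coefficient was 20.1% against 6.66% from counting, and W 4 made up most of this, since the mean without it was 17.2 ± 1.22 CPM (SD, n = 3). Without W 4 the log2 difference was −0.57 for KM vs W and −0.60 for “0” vs W.

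Markers of blood and of the meninges had their highest median in W rats, as did Ccn2 and Igfbp5. The erythrocyte median was 2638 CPM in KM, 1464 CPM in “0” and 3501 CPM in W rats, and the ranges of KM and “0” rats overlapped. Of 7 erythrocyte markers, 3 had a symbol (Alas2, Hba-a2 and Slc4a1), and their sum was 1387 to 2685 CPM in KM, 1114 to 1707 CPM in “0” and 2510 to 6614 CPM in W rats. Slc22a6, the only one of 12 meningeal and fibroblast markers with a symbol, was at 1.07 to 1.95 CPM in KM, 1.1 to 7.02 CPM in “0” and 2.15 to 10.7 CPM in W rats, and was highest in W 4. Endothelial markers (4 of 11) went the other way, with 270 to 277 CPM in KM, 237 to 280 CPM in “0” and 186 to 227 CPM in W rats. Symbols were known nearly only for genes that the study lists as differing between KM and W or “0” rats. The directions of these markers are therefore no independent evidence. The part of blood, meninges or vessels in the levels of Ccn2 and Igfbp5 was not tested.

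**Figure D2:**
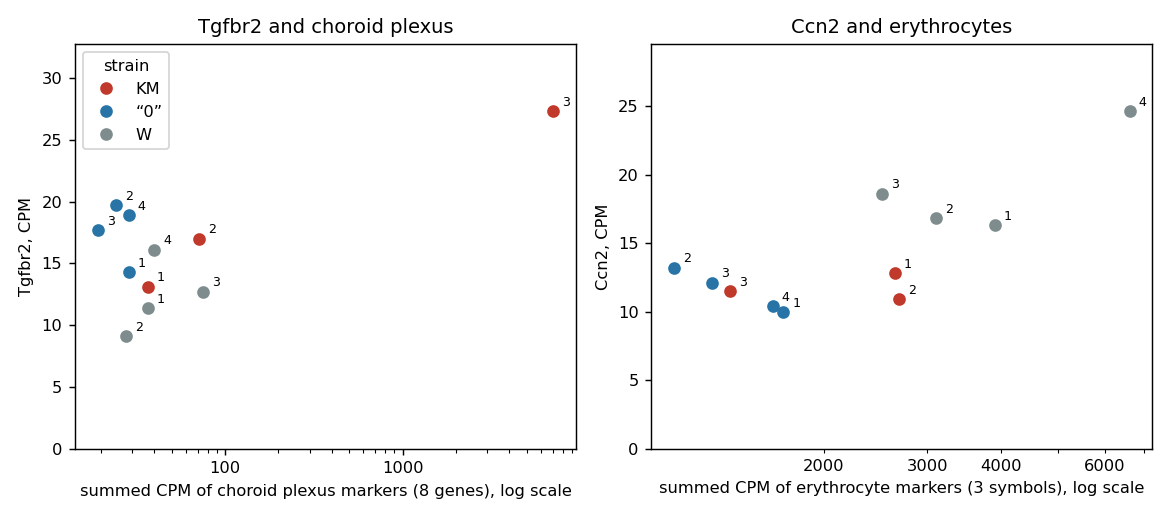
Left, Tgfbr2 in CPM against the summed CPM of 8 choroid plexus markers (log scale); right, Ccn2 in CPM against the summed CPM of 3 erythrocyte marker symbols (log scale). Points are single rats with their numbers, coloured by strain. KM 3 stands alone at 7085 CPM of choroid plexus markers and has the highest Tgfbr2, 27.3 CPM, and W 4 stands alone at 6614 CPM of erythrocyte markers and has the highest Ccn2, 24.6 CPM.

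Tgfbr2 went in the opposite direction to Ccn2 and Igfbp5, with the lowest mean in W rats, but its strains overlapped. In KM rats Tgfbr2 was at 13.1, 17 and 27.3 CPM, and in “0” rats at 14.3, 19.7, 17.7 and 18.9 CPM. In W rats it was at 11.4, 9.11, 12.7 and 16.1 CPM. W 1, W 2 and W 3 lay under all KM and “0” rats, whereas W 4 lay above KM 1 and “0” 1. Tgfbr2 averaged 19.1 ± 7.34 CPM (SD, n = 3) for KM rats, 17.7 ± 2.4 CPM (SD, n = 4) for “0” rats and 12.3 ± 2.91 CPM (SD, n = 4) for W rats. The log2 difference was 0.64 (SE 0.28) for KM vs W, 0.52 (SE 0.19) for “0” vs W and 0.11 (SE 0.25) for KM vs “0”. KM 3 set much of the KM value, since the KM mean without it was 15 ± 2.77 CPM (SD, n = 2). KM vs W then became 0.30 and KM vs “0” turned to −0.21. KM 3 is the rat with 7085 CPM of choroid plexus markers, and the part of that tissue in its Tgfbr2 level was not tested. The comparison of “0” with W does not involve KM 3 and stayed between 0.40 and 0.67 when 1 rat was left out.

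Itga11 had the largest differences of the 4 genes on the log2 scale in the comparisons with “0” rats, though not in KM vs W, and lay near the limit of detection in “0” rats. In KM rats Itga11 stood at 9.86, 7.39 and 2.36 CPM, from 120, 87 and 40 reads. In “0” rats it stood at 0.947, 0.285, 0.44 and 0.52 CPM, from 12, 3, 4 and 8 reads, so that “0” 2 was at the 3-count floor. In W rats it stood at 4.45, 2.83, 1.21 and 7.14 CPM, from 56, 37, 14 and 76 reads. The highest “0” rat lay under the lowest W rat, W 3, and under all KM rats, while KM and W rats overlapped over most of their ranges. Itga11 averaged 6.54 ± 3.82 CPM (SD, n = 3) for KM rats, 0.548 ± 0.283 CPM (SD, n = 4) for “0” rats and 3.91 ± 2.53 CPM (SD, n = 4) for W rats. Itga11 was 11.5-fold higher in KM than in “0” rats (log2 difference 3.52, SE 0.55) and 6.89-fold lower in “0” than in W rats (−2.78, SE 0.57). Leaving out 1 rat kept these differences between 3.09 and 3.94 and between −3.17 and −2.33, and without both KM 3 and “0” 4 the difference between KM and “0” was 3.89 (SE 0.45). The difference between KM and W was 0.74 with an SE of 0.61, and it ranged from 0.31 without KM 1 and 0.43 without W 3 to 1.15 without KM 3 and 1.18 without W 4. The 27 reads of all “0” rats together limit the precision of the low level. The coefficient of variation among “0” rats was 51.7%, against 38.5% from counting alone.

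**Figure D3:**
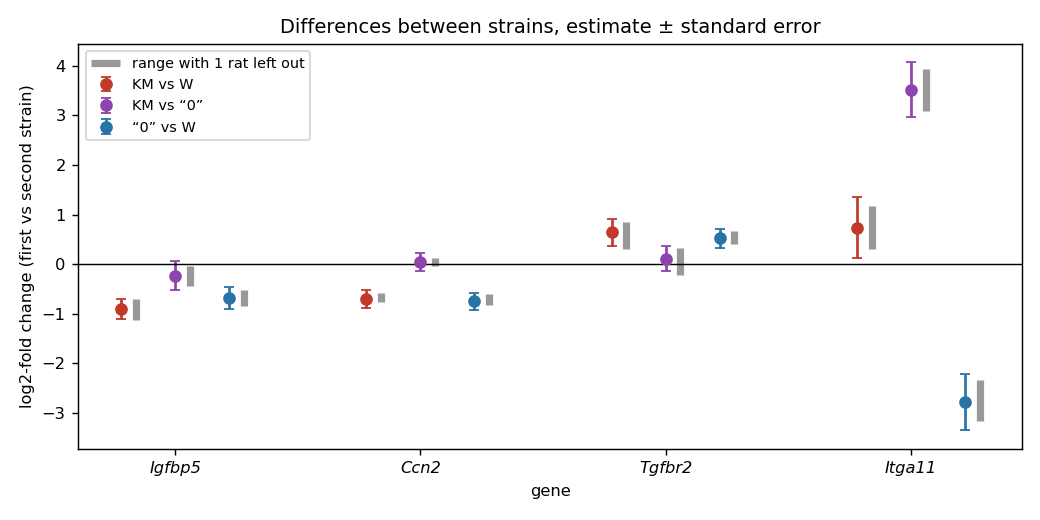
Log2-fold change (vertical axis) of each gene in each pair of strains. Points with bars give the estimate ± SE, derived from the F statistic of edgeR's quasi-likelihood fit, and the grey bars the range when 1 rat is left out. Igfbp5 and Ccn2 lie below 0 in both comparisons with W and near 0 between KM and “0”, and Itga11 lies at 3.52 and −2.78 in the comparisons with “0”.

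The 4 genes differed in which strains overlapped. Igfbp5 and Ccn2 did not overlap in KM vs W, where 11.7% of all 13721 genes tested did not overlap either. In KM vs “0” only Itga11 of the 4 did not overlap, against 4.59% of 13686 genes. In “0” vs W it was Igfbp5, Ccn2 and Itga11, against 4.37% of 13630 genes. The genes were chosen from such differences, and the comparisons share rats, so these counts are a description only. The rats of different strains overlapped in every comparison for Tgfbr2. Levels of Igfbp5 and Ccn2 in “0” rats overlapped with those of KM rats and not with those of W rats, while Itga11 in “0” rats lay under the levels of KM and of W rats.

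The spread between rats of one strain was wide for Itga11 and narrow for Ccn2. The within-strain SD of log2 CPM was 0.89 for Itga11, larger than in 92% of the 2627 genes within 2-fold of its level, and 0.21 for Ccn2, larger than in 26.4% of 4445 such genes. Igfbp5, with an SD of 0.38, was more variable than 86% of 1953 genes of its level, and Tgfbr2, with 0.36, more than 72.9% of 4554. The highest W rat had 5.92 times the Itga11 level of the lowest, and the highest KM rat 4.18 times that of the lowest. For Ccn2 these ratios were 1.51 and 1.18. The rats highest and lowest in Itga11, KM 1 and KM 3 and W 4 and W 3, were also those for the thalamus and cortex marker sum. That sum was 63.2 and 30.9 CPM in KM 1 and KM 3, and 40.4 and 17.1 CPM in W 4 and W 3. In “0” rats the highest rat was shared and the lowest was not. Between strains the sum of “0” rats, 19.6 to 50.3 CPM, overlapped with both others. The part of that tissue in Itga11 was not tested. Over the 11 rats Igfbp5 and Ccn2 correlated with a Pearson r of 0.69 in log2 CPM, which fell to 0.0934 once the strain means were subtracted. The shared course of Igfbp5 and Ccn2 lay mostly in the strain means, although W 4 was the highest rat in both.

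The named genes whose log2 CPM followed each gene most closely over the 11 rats were sought among 1754 genes with a symbol. The search is a description in which the strain differences and the library composition are shared. Nearly all of these symbols belong to genes that the study lists as differing between KM and W or “0” rats. Genes without a symbol could not be found, so closer ones may exist. Igfbp5 was followed by Kcnip1, which encodes a subunit that binds Kv4 potassium channels, with an r of 0.918 over 11 rats and of 0.901 for deviations from the strain means. Kcnip1 ranged from 18.8 to 31.6 CPM in KM, 20.8 to 40.8 CPM in “0” and 34.1 to 52.5 CPM in W rats. Arl2bp (r = 0.908), whose product binds the small GTPase Arl2, and Cldn12 (r = 0.889), a claudin, came next. For Ccn2 the closest were Asgr2 (r = 0.924), a subunit of the asialoglycoprotein receptor, the chemokine gene Cxcl16 (r = 0.919) and the clock gene Per1 (r = 0.902). Per1 ranged from 35.2 to 49.6 CPM in KM, 26 to 35.4 CPM in “0” and 52.6 to 89.2 CPM in W rats. As for Ccn2, W rats overlapped with no other rat for Per1, Asgr2 and Cxcl16, which were picked for following Ccn2. The correlations of these genes with Ccn2 within strains were lower, 0.584, 0.613 and 0.706.

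Tgfbr2 was followed by Mmp14 (r = 0.892), a membrane-bound matrix metalloproteinase, by Wfikkn2 (r = 0.871), whose secreted product binds GDF8 and GDF11, and by RGD1310587 (r = 0.849). KM 3 held the highest level of Mmp14 as well, 26.3 CPM against 11.9 and 13 CPM in the other KM rats. Wfikkn2 ranged from 7.47 to 41.9 CPM in KM, 7.5 to 13 CPM in “0” and 5.13 to 8.74 CPM in W rats. The part of single rats such as KM 3 in these correlations was not tested. Itga11 was followed by Nr4a2 (r = 0.908), a nuclear receptor that midbrain dopamine neurons need, by RGD1359290 (r = 0.881) and by Cblb (r = 0.875), a ubiquitin ligase. Nr4a2 ranged from 6.55 to 17.6 CPM in KM, 1.76 to 4.18 CPM in “0” and 2.41 to 19.7 CPM in W rats, and its r with Itga11 within strains was 0.833. RGD1359290 was at 0 to 0.553 CPM in “0” rats against 5.9 to 10.5 CPM in KM and 6.46 to 13.5 CPM in W rats, and its r within strains was 0.557. Nr4a2 thus followed Itga11 from rat to rat, whereas RGD1359290 shared mainly its low level in “0” rats.

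The surrounding pathways were examined over 5 lists of 188 genes, of which 21 could be matched to an identifier. A symbol was known nearly only for genes that the study lists as differing between KM and W or “0” rats, so their counts are no independent evidence of a direction. In KM vs W, 14 of the 21 were higher in KM and 1 lower at an unadjusted p under 0.05, and 6 were not called, where 5.58% of all genes tested were higher and 5.33% lower. Markers of several cell types were also higher in KM than in W rats without overlap. Their symbols come from the same selection, and 11.7% of all genes tested did not overlap in KM vs W, in either direction. Astrocyte markers (4 of 8 with a symbol) summed to 3157 to 3776 CPM against 2510 to 2936 CPM, the endothelial markers to 270 to 277 CPM against 186 to 227 CPM, and the microglial marker Tmem119 (1 of 8) was at 22.7 to 27.5 CPM against 15.6 to 20.1 CPM. Their part in the list genes was not tested. In KM vs “0” 5 were higher and 2 lower, against 2.37% and 1.29% of all genes. Scaled by library size alone, which moved the median of all genes from 0.01 to 0.12 in both comparisons of KM rats, 14 and 1 list genes were called in KM vs W and 5 and 0 in KM vs “0”, while over all genes the calls went from 765 higher and 732 lower to 1239 and 313, and from 324 and 176 to 418 and 58. In “0” vs W 2 were higher and 1 lower in “0”, against 3.26% and 3.43%. Over the 21 genes the median log2 difference was 0.45, 0.21 and 0.21 in turn, where the median of all genes was within 0.01 of 0. After Benjamini-Hochberg adjustment over all genes, edgeR's quasi-likelihood test called 0 of the 21 in every comparison (at an unadjusted p under 0.05 it called 15, 7 and 3), and DESeq2 called 3, 1 and 0. Over all genes the share called after adjustment was 0.0656% for KM vs W, 0.0146% for KM vs “0” and 0.11% for “0” vs W. Each p-value sets a strain difference against the spread between these rats within strains, estimated with information shared across genes. It covers these rats only.

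In the IGF system, 3 receptor genes, of 4 genes with a symbol, were called higher in KM rats compared with W rats. Over all genes tested 5.58% were higher, but a symbol was known nearly only for genes that the study lists as differing. Igf1r, the main signalling receptor of IGFs, stood at 13.5 ± 1.2 CPM (SD, n = 3) for KM and 9.87 ± 1.68 CPM (SD, n = 4) for W, with a log2 difference of 0.45 (SE 0.18). The mannose 6-phosphate receptor gene Igf2r, which clears IGF2, differed by 0.32 (SE 0.13) and the insulin receptor gene Insr by 0.40 (SE 0.15). Each of the 3 calls was lost when single rats were left out, Igf1r in 5 of 7 cases, Igf2r in 6 and Insr in 4. The other binding protein with a symbol, Igfbp4, went with Itga11 rather than with Igfbp5. It was at 21.4, 4.93 and 11.7 CPM in KM, 2.05, 2.47, 2.64 and 2.34 CPM in “0” and 5.01, 14.5, 3.36 and 4.23 CPM in W rats. All “0” rats were below all other rats. Igfbp4 was higher in KM than in “0” by 2.41 on the log2 scale (SE 0.43, unadjusted p = 0.000321, adjusted p = 0.231 by edgeR's quasi-likelihood test with Benjamini-Hochberg adjustment). It was lower in “0” than in W by a log2 difference of −1.53 (SE 0.45), which was −0.83 without W 2, the rat with 14.5 CPM, and remained called.

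In the TGFβ and BMP pathway, 5 of 60 listed genes had a symbol. Inhbb, which encodes the βB chain of activin and inhibin, was higher in KM than in W rats by 1.32 (SE 0.33), with 15.3 ± 5.94 CPM (SD, n = 3) against 6.14 ± 2.28 CPM (SD, n = 4), and higher than in “0” rats by 0.81 (SE 0.28). The latter call was lost without KM 1 (0.47) and without “0” 2 (0.71). Smad7, an inhibitor of the receptor complex that Tgfbr2 forms, and Tgfbi, a matrix protein gene induced by TGFβ, were higher in KM than in “0” rats by 0.51 (SE 0.18) and 0.76 (SE 0.22). The call of Smad7 was lost without KM 3 (0.42) and without “0” 3 (0.42). Tgfbi stood at 17.1 to 17.4 CPM in KM rats and at 6.63 to 12.1 CPM in “0” rats, which did not overlap. Smurf2, a ubiquitin ligase that acts on the receptors, was higher in KM than in W rats by 0.30 (SE 0.12), a call lost in 6 of 7 cases with 1 rat left out. Gdf11, an activin-type ligand, was lower in KM than in “0” rats by a log2 difference of −0.38 (SE 0.17), a call lost in 6 of 7 such cases. Tgfbi, a TGFβ target like Ccn2, thus differed between KM and “0” rats, for which the Ccn2 difference was 0.04.

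Among the integrins and their linkers, 4 of 5 genes with a symbol were called higher in KM rats compared with W rats and none lower. The fifth, Itga8, had a log2 difference of 0.49 (SE 0.42). Over all genes tested 5.58% were higher and 5.33% lower, but genes with a symbol were nearly only those the study lists as differing. Itgav, the αv chain, had the largest difference in this list, 0.71 (SE 0.15), with 34.8 to 48.1 CPM in KM and 21.8 to 28.9 CPM in W rats. Itga1, which like Itga11 encodes a collagen-binding α chain, differed by 0.66 (SE 0.23) between KM and W rats, Itga9 by 0.62 (SE 0.25) and vinculin (Vcl), a linker to actin, by 0.36 (SE 0.14). The calls of Itga1, Itga9 and Vcl were each lost with 1 rat left out (3, 6 and 5 of 7 cases), and that of Itgav was kept in all 7. Itga8 was higher in KM than in “0” rats by 1.15 (SE 0.49), a call lost in 3 of 7 cases with 1 rat left out (0.60 without KM 1). No integrin was called between “0” and W rats over the 5 genes with a symbol, which was known mainly from comparisons with KM rats. Their differences ran from −0.67 for Itga8 (SE 0.38) to 0.41 for Itga1 (SE 0.30), so equal levels were not shown. Of the YAP/TAZ list only Stk3, a kinase that restrains YAP, had a symbol. It was higher in KM than in W rats by 0.68 (SE 0.28), a call lost in 5 of 7 cases with 1 rat left out.

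Among matrix proteins, 4 of 6 genes with a symbol were called higher in KM rats compared with W rats and 1 lower. The sixth, Vtn, had a log2 difference of −0.31 (SE 0.21). The shares over all genes tested were 5.58% and 5.33%, and the selection of genes with a symbol applies here too. Fmod, the collagen-binding proteoglycan fibromodulin, was lower in KM, with 1.73, 3.65 and 6.97 CPM against 10.5, 8.12, 16.1 and 23.1 CPM in W rats (log2 difference −1.79, SE 0.50). It thus had the direction of Igfbp5 and Ccn2. The meningeal marker Slc22a6 (1.07 to 1.95 CPM in KM, 2.15 to 10.7 CPM in W rats) moved with Fmod, both being highest in W 4, and its part in the Fmod level was not tested. Higher in KM were Mmp14 by 0.76 (SE 0.30), the basement membrane collagen gene Col4a1 by 0.43 (SE 0.14) and the proteases Adamts1 by 0.60 (SE 0.17) and Adamts4 by 0.55 (SE 0.19). The call of Mmp14 was lost in 3 of 7 cases with 1 rat left out, with 0.31 without KM 3. That of Adamts4 was lost without KM 1 (0.34) and without W 2 (0.48). Mmp14 was also higher in “0” than in W rats by 0.73 (SE 0.19), and so was Col4a1 by 0.45 (SE 0.19), a call lost in 5 of 8 cases, with 0.24 without “0” 4. Vtn, the adhesive protein vitronectin, was lower in KM than in “0” rats by a log2 difference of −0.46 (SE 0.17), a call lost without KM 3 (−0.31) and without “0” 3 (−0.39). The calls kept whichever rat was left out were those of Inhbb, Itgav, Fmod, Col4a1 and Adamts1 in KM vs W, of Igfbp4 and Tgfbi in KM vs “0” and of Igfbp4 and Mmp14 in “0” vs W.

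**Figure D4:**
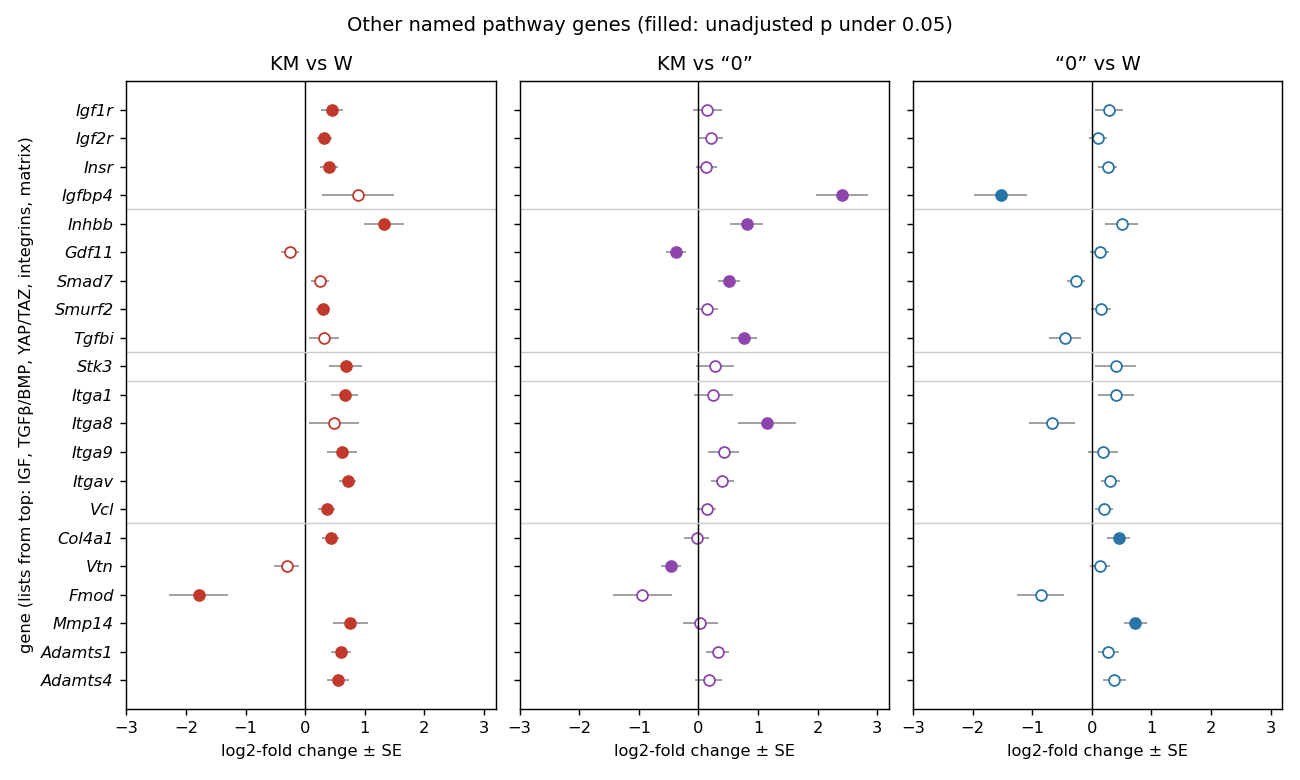
Log2-fold change ± SE (horizontal axes) of the 21 pathway genes with a symbol, by list, comparing KM with W (left), KM with “0” (middle) and “0” with W (right). Filled points have an unadjusted p under 0.05 by edgeR's quasi-likelihood test. In KM vs W 14 filled points lie above 0 and only Fmod, at −1.79, lies below, and Igfbp4 stands out at 2.41 and −1.53 in the comparisons with “0”.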

How the data were processed

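Poly(A) RNA of the corpora quadrigemina was sequenced from 3 KM, 4 “0” and 4 W rats as single-end reads from a directional kit. Per the labels and the paper's methods, the authors trimmed the reads with Trimmomatic, mapped them with STAR to Rnor_6.0 and counted them with HTSeq, and they deposited raw counts per Ensembl gene for each rat, without normalization. Tool versions, annotation release and strand setting of the counting are not given in the sources used here, so reads of a gene and of an overlapping gene on the other strand may not be separated. Reads not assigned to exactly one gene were left out of library sizes and made up 18.3% to 24.1% of each library.

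CPM with TMM factors over all 11 rats and log2 CPM with a prior count of 2 (0.5 as an alternative) were computed here. Each pair of strains was fitted on its own rats with the original quasi-likelihood F-test of edgeR 4.0.16 in R 4.3.3 (limma 3.58.1), for genes averaging 1 CPM or more in the rats compared, and called at an unadjusted p under 0.05 as in the paper, with Benjamini-Hochberg adjustment beside it. The SE of a log2 difference is its absolute value divided by the square root of the F statistic. The procedure was also run on simulated counts that held no differences in library composition between rats, so that run does not cover rats such as KM 3. DESeq2 1.42.0, other scalings, no filter, a joint fit of the 11 rats, a replicate block and leaving out each rat were alternatives. Scaling by library size alone and leaving out KM 3 and “0” 4 together were added after seeing the data. Levels are not compared between genes, since gene lengths were not at hand.

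Symbols came from a supplementary table of the study, which names 1763 of the 32883 identifiers, and its fold changes and p-values were not used. The genes, lists and tests were chosen with earlier results of these data known. Named were the 4 genes, up to 6 called genes per list and comparison by smallest p, the 3 genes most correlated with each, and direct partners, of which Igf1r alone had a symbol. The partners Itgb1, Tgfbr1, the TGFβ ligands, Igf1, Igf2, Ccn1, Col1a1, Col1a2 and Fhl2 were not analysed here. Promoter sequences were taken from RefSeq, and all 4 genes matched by symbol.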

Additional observations from a re-analysis of the deposited data

Results flagged for a closer look

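Among 70 groups of 4 rats examined, each a list gene, one of the 4 genes or a marker sum in “0” or W rats, 5 held a rat far from the others of its strain by Dixon's criterion for the gap to the nearest rat over the whole range, at the 95% level. Chance flags about 1 in 20 groups, and none of the 5 was among Igfbp5, Ccn2, Tgfbr2 and Itga11. W 4 stood apart for Adamts1, with 10.9 CPM against 8.34 to 8.74 CPM in the other W rats. W 2 stood apart for Igfbp4, with 14.5 CPM against 3.36 to 5.01 CPM, and for Gdf11, with 66.6 CPM against 90.8 to 95.5 CPM. “0” 2 stood apart for Fmod, with 14.2 CPM against 5.37 to 6.49 CPM (it also had the most Slc22a6, a meningeal marker, among “0” rats, 7.02 CPM), and for the summed mural and smooth muscle markers, with 134 CPM against 100 to 106 CPM in the other “0” rats.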

How the results depend on the processing

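The log2 differences of Igfbp5, Ccn2, Tgfbr2 and Itga11 moved by less than their within-strain SD under every alternative run. Leaving out 1 rat can hardly move them by more than that, so this does not show that they were stable. In KM vs W, Tgfbr2 went from 0.64 to 0.30 without KM 3. Itga11 in KM vs W, 0.74 with all rats, ran from 0.31 without KM 1 to 1.18 without W 4. Numbers of genes called at an unadjusted p under 0.05 moved as well. KM vs W gave 1497 genes, 9 with adjusted p-values by edgeR, and 954 (without W 1) to 1831 with 1 rat left out. KM vs “0” gave 500, but 777 with no filter, 1180 without KM 3 and “0” 4, 2 with adjusted p-values, and 280 (without “0” 3) to 921 (without KM 3), with 295 without KM 1. “0” vs W gave 912, 15 with adjusted p-values, and 612 to 1017 with 1 rat left out. Of the 21 list genes, 15, 7 and 3 were called, and with 1 rat left out 7 (without KM 3 or W 1) to 12, 3 (without “0” 3) to 8, and 3 to 5 (without “0” 1). The log2 difference of Tgfbr2 in KM vs “0” changed sign without KM 3, at −0.21. Apart from leaving out single rats, 276 values of single genes and lists stayed, 11 counts of single lists moved by over 1.5 times and 17 gene calls were lost. Scaling by library size alone shifted the median of all genes from 0.01 to 0.12 in both comparisons of KM rats. Relative to it no difference of the 4 genes turned, and KM vs “0” was then −0.11 for Igfbp5 and 0.16 for Ccn2. The causes were not tested.

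With the replicate block, KM vs W gave 1527, KM vs “0” 781 and “0” vs W 804 calls. Equal numbers mark different animals, deviations of same-numbered rats correlated at −0.581 to 0.517, and not every rat correlated best with its own number, so the numbers were not taken as pairs. The calls of Igf1r, Igf2r, Insr, Itga1, Itga9 and Vcl in KM vs W were lost. Itga11 in KM vs W was 1.18 with the block against 0.74. Depth limits Itga11 in “0” rats, where 3 to 12 reads a rat were counted.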
